A study of Caenorhabditis elegans with 12 samples.

Results

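The genes described here are the 99 of 12595 measured genes (0.786%) whose transcripts were more abundant on skn-1 RNAi food than on vector food in every matched pair of libraries of both strains. They were chosen by their measured values: the log2 CPM (CPM, read counts scaled to a common library total) of a skn-1 RNAi library minus that of the vector library with the same replicate number had to exceed 0.25 in all 3 pairs of WT (N2) and in all 3 pairs of glp-1(ts). Genes named pas-, pbs-, rpn-, rpt-, gst-, ugt-, clec-, col- or cyp- were left out, which removed 9 of the 108 genes that met the threshold, namely col-113, clec-5, clec-10, clec-166, clec-170, clec-218, ugt-24, ugt-27 and cyp-35A3. Because these differences selected the genes, they are given as a description and carry no test. At the edge of the threshold, the smallest of the 6 differences was just above 0.25 for ndx-1 (a Nudix hydrolase) and ZK896.1 and 0.252 for C25E10.8, which are inside, and 0.242 for asm-3, 0.237 for dhs-16 and 0.237 for glt-5, which are outside. In the other direction, 86 genes of any name were below −0.25 in all 6 pairs.

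RNA was sequenced from whole day 1 adults kept at 25°C, in 4 groups of 3 biological replicates: glp-1(ts) + skn-1 RNAi, glp-1(ts) + vector, N2 + skn-1 RNAi and N2 + vector. The glp-1(ts) animals carry the temperature-sensitive bn18 allele of the Notch receptor gene glp-1 and hold few germ cells at this temperature, whereas N2 adults keep an intact germline and eggs. All animals ate HT115 bacteria carrying either pL4440 (L4440, the empty RNAi vector) or a skn-1 RNAi construct from early in life. Each library pooled animals of a synchronized culture, and feeding RNAi lowers skn-1 function only in part.

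SKN-1 is the C. elegans relative of the mammalian Nrf proteins, a transcription factor best known for turning on detoxification and stress defence genes, chiefly in the intestine. A different defence is the intracellular pathogen response, a set of genes that worms switch on when microsporidia or the Orsay virus enter intestinal cells, and that also answers to proteasome inhibition. Some of the pals- genes, a large nematode family of mostly unknown biochemistry with 10 genes among those described here, are its best known markers. Smaller groups encode cathepsins, the cysteine proteases of lysosomes and the gut lumen, and enzymes of peroxisomal beta-oxidation, which in C. elegans also shortens the side chains of ascaroside pheromones.

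The RNAi label was checked first. In N2, skn-1 was at 4.56, 5.03 and 4.37 log2 CPM in the skn-1 RNAi libraries, against 6.38, 6.50 and 6.10 on vector, and fell by 1.67 (adjusted p = 0.00782, limma with Benjamini-Hochberg adjustment). In glp-1(ts), skn-1 was at 5.73, 6.60 and 6.08 log2 CPM in the libraries labelled skn-1 RNAi, against 6.07, 6.17 and 6.23 on vector, a difference of −0.02 (adjusted p = 0.991, limma with Benjamini-Hochberg adjustment). The skn-1 transcript therefore gives no check of that label in glp-1(ts). The mean over 13 other SKN-1 targets and regulators was 4.14, 4.10 and 4.18 log2 CPM in glp-1(ts) + skn-1 RNAi, against 4.87, 4.63 and 4.75 on vector, and in N2 it was 2.98, 2.77 and 2.99 on skn-1 RNAi, against 3.46, 3.48 and 3.53 on vector. This mean was lower under the skn-1 RNAi label in both strains with no overlap. By gene, the difference was below 0 for 9 of the 13 in glp-1(ts) and for 11 in N2, with medians of −0.35 and −0.44. Of the 13 genes limma with Benjamini-Hochberg adjustment called the glutathione S-transferase gene gst-4 and the nitrilase gene nit-1 lower in glp-1(ts) and gst-4 lower in N2, and none higher. The reference genes cdc-42, pmp-3 and Y45F10D.4 differed between foods by 0.06, −0.08 and −0.03 in glp-1(ts). In N2 they differed by 0.04, −0.09 and 0.24. The N2 pairs of Y45F10D.4 differed by 0.26, −0.05 and 0.53, so that 1 reference gene reached the size of the threshold. The strain label could be read from germline transcripts: the mean over 15 germline genes was 3.70, 3.60 and 3.78 log2 CPM in glp-1(ts) + skn-1 RNAi, 3.61, 3.80 and 4.78 in glp-1(ts) + vector, 7.10, 7.34 and 6.85 in N2 + skn-1 RNAi and 7.08, 7.26 and 6.96 in N2 + vector. The third glp-1(ts) vector library stood above the other glp-1(ts) libraries in this list. It is the third glp-1(ts) vector value wherever 3 are listed below, and it is not named each time. It was the lowest of its group for 47 members, among them F07E5.9, B0507.8, F42C5.3, F57G4.11, pals-5 and math-34.

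The 99 genes were mostly of low abundance. Their median level over the 12 libraries was 0.84 log2 CPM, against 3.06 for all genes, and 28 of them (28.3%) reached a mean of 4 CPM, against 65.2% of all genes. On N2 + vector the mean of 61 members was below 1 CPM, and 16 had at least 1 library at the lowest value of the table (−4.35 log2 CPM). For pals-5, pals-30 and B0507.7 all 3 N2 vector libraries sat at that lowest value, so no fold change is given for these genes in N2. Differences of genes near this value depend on it.

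The difference between foods had a median of 0.98 in glp-1(ts), with a range of 0.39 to 4.47, and of 1.10 in N2, with a range of 0.35 to 4.86, against 0.01 in both strains over all genes. By matched pair the member medians were 0.92, 0.89 and 1.09 in glp-1(ts) and 1.03, 0.84 and 1.39 in N2. The third pair was the largest of the 3 for 51 members in glp-1(ts) and for 55 members in N2. The libraries behind this differed between strains: the third N2 skn-1 RNAi library was the highest of its group for 61 members, and the third glp-1(ts) vector library, the one with more germline RNA, was the lowest of its group for 47 members. The mean over all 99 members was 2.88, 2.92 and 2.93 log2 CPM in glp-1(ts) + skn-1 RNAi and 1.63, 1.78 and 1.37 in glp-1(ts) + vector. In N2 the same mean was 0.98, 1.28 and 1.76 on skn-1 RNAi and −0.31, 0.09 and −0.26 on vector. The skn-1 RNAi libraries lay above the vector libraries of their strain in both cases. The selection fixes this for libraries with the same replicate number and makes it likely for the others, so nothing is read from it. Without the third glp-1(ts) vector library the median difference in glp-1(ts) was 0.91, and without the third N2 skn-1 RNAi library that in N2 was 0.89.

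**Figure D1:**
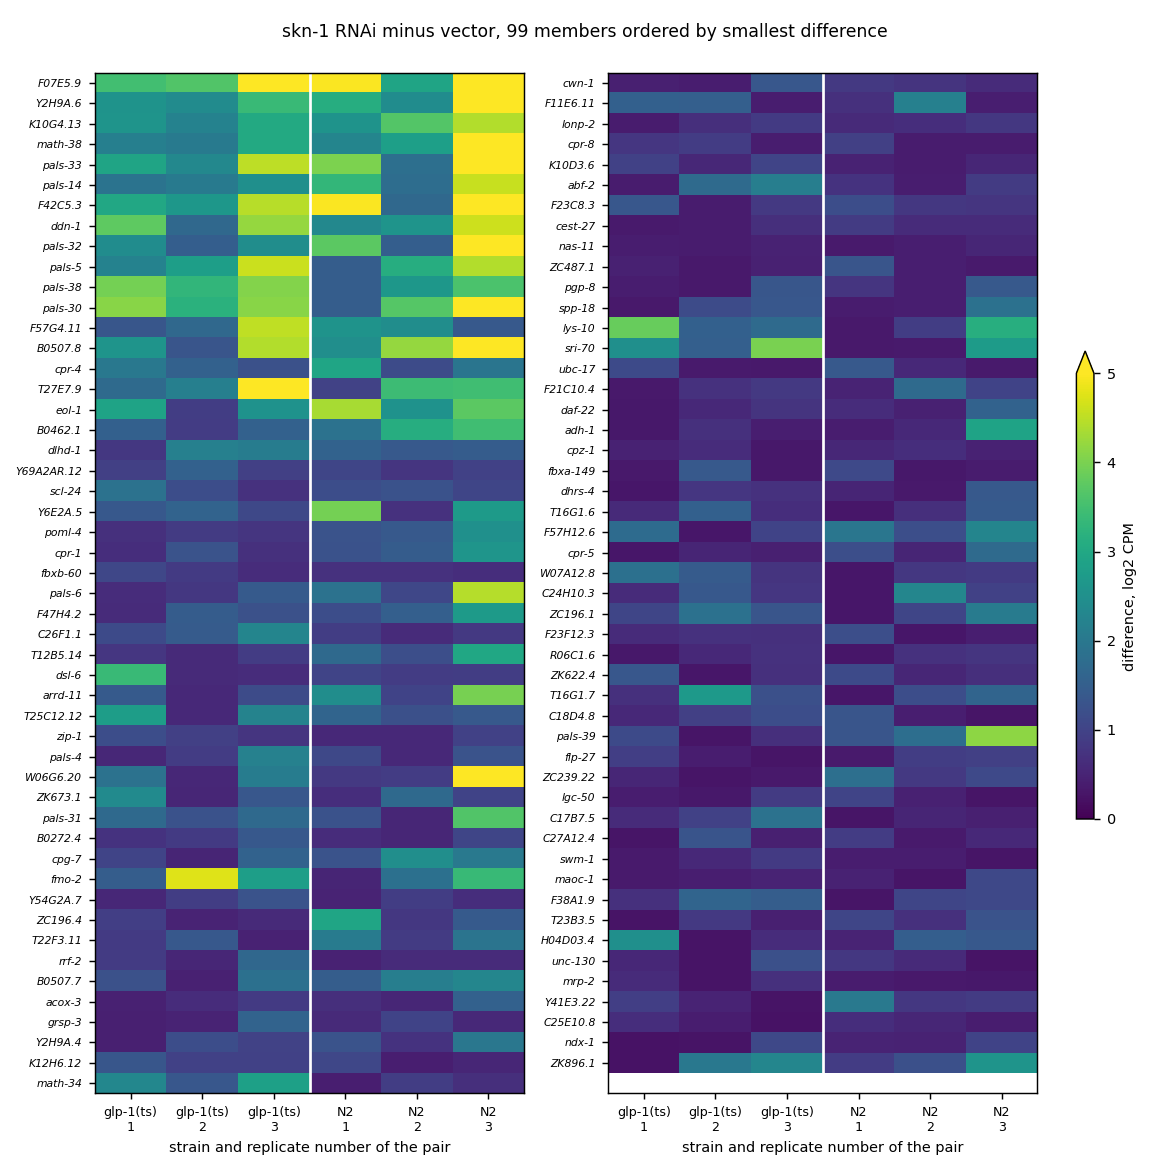
The colour gives skn-1 RNAi minus vector in log2 CPM for each of the 99 genes (rows, ordered by the smallest of their 6 differences) in the 3 glp-1(ts) pairs and the 3 N2 pairs (columns); differences above 5 share the top colour. F07E5.9, Y2H9A.6, K10G4.13 and math-38 head the order, and the brightest column is the third N2 pair, with a median difference of 1.39.

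In 64 members the 3 skn-1 RNAi libraries of glp-1(ts) all lay above the 3 vector libraries, in 60 this was so in N2, and in 46 in both strains. Over all genes these shares were 8.29% in glp-1(ts), 5.36% in N2 and 0.826% in both, but the selection itself raises the member counts and nothing is read from the contrast. Likewise, limma with Benjamini-Hochberg adjustment called 3 members higher on skn-1 RNAi in glp-1(ts) (F07E5.9, ddn-1 and math-34; 0.0556% of all genes were called higher and 0.302% lower) and 9 in N2 (F07E5.9, K10G4.13, math-38, pals-33, pals-14, ddn-1, B0507.8, eol-1 and F47H4.2; 0.0794% of all genes were called higher and 0.0953% lower). The remaining members met the rule but were not called by this fit, which compares means of 3 libraries a group and does not use the pairing by number.

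The genes whose smallest pair difference was largest were F07E5.9, Y2H9A.6, K10G4.13 and math-38, each with a difference of over 2 log2 units in all 6 pairs. F07E5.9, a protein-coding gene on the left arm of chromosome II, had 3.70, 3.72 and 4.03 log2 CPM in glp-1(ts) libraries with the skn-1 RNAi label, against 0.22, 0.08 and −2.27 on vector. In N2 it had 0.63, 1.96 and 2.35 on skn-1 RNAi, against −4.35, −0.96 and −4.35 on vector. It was the gene with the largest mean increase of all 12595 genes in both strains, 4.47 ± 0.85 (SE) in glp-1(ts) and 4.86 ± 0.85 in N2. Of its N2 vector libraries 2 were at the lowest value of the table. Its glp-1(ts) vector value of −2.27 is the library with more germline RNA. Y2H9A.6, on chromosome V beside another member, Y2H9A.4, had 3.52, 1.62 and 2.86 log2 CPM in glp-1(ts) + skn-1 RNAi, against 0.96, −0.79 and −0.52 on vector. Its N2 values were 1.46, 0.39 and 2.29 on skn-1 RNAi, against −1.65, −2.05 and −4.35 on vector. K10G4.13 is annotated as a pseudogene, so its reads may be shared with a related gene. It had 2.14, 1.26 and 2.52 log2 CPM in glp-1(ts) + skn-1 RNAi, against −0.45, −0.96 and −0.52 on vector, and −0.33, 0.77 and 0.08 in N2 + skn-1 RNAi, against −2.89, −2.89 and −4.35 on vector. math-38 encodes a MATH domain protein, of a family that is much enlarged in C. elegans. It had 4.68, 4.62 and 5.33 log2 CPM in glp-1(ts) + skn-1 RNAi, against 2.53, 2.56 and 2.30 on vector. In N2 it had 0.63, 1.87 and 3.72 on skn-1 RNAi, against −1.65, −0.96 and −2.0 on vector. The groups did not overlap within either strain for any of these 4 genes, and the order of the 4 group means for math-38 ran from glp-1(ts) + skn-1 RNAi at the top to N2 + vector at the bottom. Of 20 math- genes measured, only math-38 and math-34 were members.

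**Figure D2:**
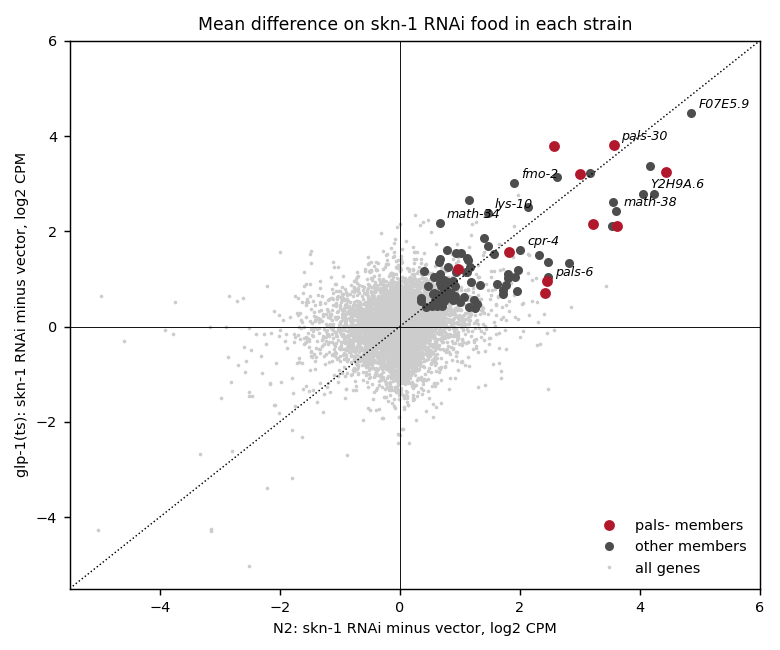
Each point is a gene, placed by its mean difference between skn-1 RNAi and vector in N2 (horizontal axis, log2 CPM) and in glp-1(ts) (vertical axis, log2 CPM), with the pals- members in red, other members in dark grey and all genes in light grey; the dotted line marks equal differences. The members fill the upper right by the selection, F07E5.9 lies at 4.86 in N2 and 4.47 in glp-1(ts), and pals-6 and pals-39 lie on the N2 side of the line; the N2 positions of pals-5, pals-30 and B0507.7 are set by the lowest value of the table.

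The pals- family held 10 of the 99 members. Of 23 pals- genes measured, pals-4, pals-5, pals-6, pals-14, pals-30, pals-31, pals-32, pals-33, pals-38 and pals-39 met the rule. The mean over these 10 genes was 2.97, 2.65 and 2.90 log2 CPM in glp-1(ts) + skn-1 RNAi, against 0.81, 0.81 and 0.08 in glp-1(ts) + vector. In N2 it was −0.12, 0.72 and 1.96 on skn-1 RNAi, against −2.22, −1.13 and −2.51 on vector. The glp-1(ts) libraries with the skn-1 RNAi label were close together, whereas the N2 skn-1 RNAi libraries were spread widely, with the third at the top.

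pals-14, one of the more abundant of these transcripts, had 6.13, 5.71 and 6.0 log2 CPM in glp-1(ts) + skn-1 RNAi, against 4.22, 3.64 and 3.51 on vector. Its N2 values were 2.93, 3.43 and 4.64 on skn-1 RNAi, against −0.38, 1.65 and 0.06 on vector. pals-6 had 6.22, 6.11 and 6.26 log2 CPM in glp-1(ts) + skn-1 RNAi, against 5.59, 5.29 and 4.84 on vector. In this gene the N2 difference was the larger of the pair, with 3.37, 3.70 and 5.05 on skn-1 RNAi, against 1.49, 2.64 and 0.62 on vector, or 2.46 ± 0.45 (SE) in N2 beside 0.96 ± 0.45 in glp-1(ts). pals-33 had 4.68, 3.47 and 4.58 log2 CPM in glp-1(ts) + skn-1 RNAi, against 1.77, 1.13 and 0.08 on vector. Its N2 values were 1.81, 1.56 and 3.12 on skn-1 RNAi, against −2.21, −0.26 and −4.35 on vector. All of its skn-1 RNAi libraries lay above the vector libraries of their strain. pals-32 had 2.84, 2.38 and 2.39 log2 CPM in glp-1(ts) + skn-1 RNAi, against 0.42, 0.89 and −0.05 on vector, and −0.61, 0.54 and 1.25 in N2 + skn-1 RNAi, against −4.35, −0.96 and −4.35 on vector.

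pals-5, the gene whose promoter is the usual reporter of the intracellular pathogen response, was rare. It had 0.24, 0.47 and 0.25 log2 CPM in glp-1(ts) + skn-1 RNAi, against −1.96, −2.33 and −4.35 on vector, and −2.86, −1.24 and 0.08 in N2 + skn-1 RNAi. It was at the lowest value of the table in every N2 vector library, so that its expression there was below detection and not shown to be absent. pals-30 had the same form, with 2.14, 1.54 and 2.80 log2 CPM in glp-1(ts) + skn-1 RNAi, against −1.96, −1.65 and −1.31 on vector, and −2.86, −0.66 and 1.20 in N2 + skn-1 RNAi, again with all N2 vector libraries at the lowest value. pals-38 had 2.42, 2.08 and 2.35 log2 CPM in glp-1(ts) + skn-1 RNAi, against −1.55, −1.21 and −1.73 on vector. In N2 its libraries overlapped, with −2.86, −0.24 and 1.59 on skn-1 RNAi, against −4.35, −2.89 and −2.0 on vector. pals-39, deposited under the name dct-3, had 3.58, 2.53 and 3.09 log2 CPM in glp-1(ts) + skn-1 RNAi, against 2.46, 2.24 and 2.41 on vector. In N2 it had −0.33, 1.15 and 2.14 on skn-1 RNAi, against −1.65, −0.66 and −2.0 on vector, and the N2 difference of 2.42 stood beside 0.70 in glp-1(ts). pals-4 differed by 1.21 in glp-1(ts) and 0.98 in N2, and pals-31 by 1.56 in glp-1(ts) and 1.82 in N2.

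**Figure D3:**
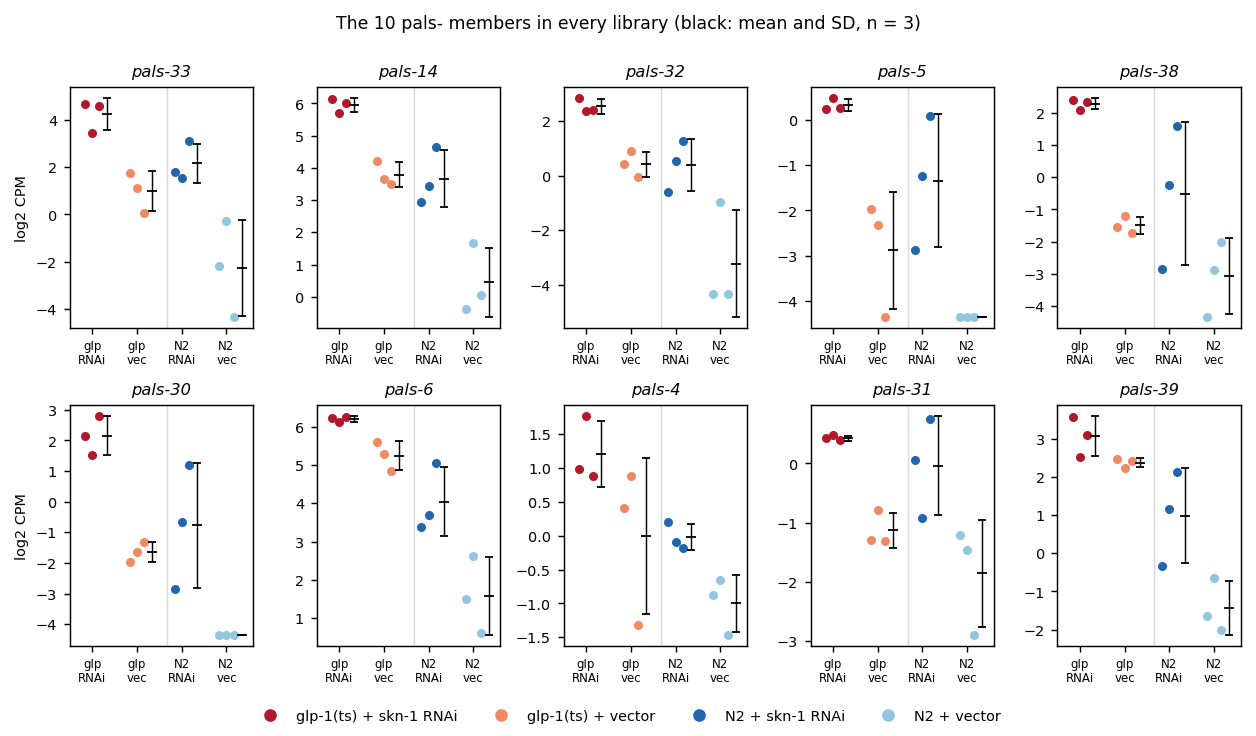
Each panel shows 1 pals- gene, with log2 CPM on the vertical axis and the 12 libraries as points in 4 groups (glp, glp-1(ts); RNAi, skn-1 RNAi; vec, vector); black marks are the mean and SD of 3 libraries. In each panel the skn-1 RNAi group mean is above the vector mean of its strain, and the N2 skn-1 RNAi points of pals-5, pals-30 and pals-38 spread the most.

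The other 13 pals- genes did not meet the rule. pals-26, pals-27 and pals-37 had positive mean differences in both strains, of 1.16, 2.11 and 1.01 in glp-1(ts) and 2.01, 1.90 and 2.27 in N2, but at least 1 pair of each fell short of the threshold. pals-22 and pals-25, the best studied regulators of the response and acting in opposite directions on it, differed by 0.38 and 0.48 in glp-1(ts) and by 0.63 and 0.22 in N2. Over all 23 pals- genes the median difference was 0.96 in glp-1(ts) and 1.82 in N2. limma with Benjamini-Hochberg adjustment called 2 of the 23 higher on skn-1 RNAi in N2 and 0 in glp-1(ts), against 0.0794% and 0.0556% of all genes, and it called none lower. At an unadjusted p below 0.05, 9 were higher in glp-1(ts) and 11 in N2, and none lower. For all 12595 genes the counts at that level were 519 higher and 799 lower in glp-1(ts), and 259 and 491 in N2. The 10 members among the 23 were chosen by these differences.

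A further 4 members, eol-1, zip-1, F42C5.3 and F57G4.11, stood on no list used here and were chosen for description after their values were seen. eol-1, which encodes a homologue of the mammalian RNA decapping enzyme DXO, had 4.11, 3.23 and 3.98 log2 CPM in glp-1(ts) + skn-1 RNAi, against 1.21, 2.32 and 1.43 on vector. In N2 it had 1.46, 2.48 and 2.99 on skn-1 RNAi, against −2.89, −0.07 and −0.75 on vector, with no overlap in either strain. zip-1, the bZIP transcription factor needed for part of the response, had 5.20, 4.40 and 5.15 log2 CPM in glp-1(ts) + skn-1 RNAi, against 4.02, 3.45 and 4.37 on vector. In N2 zip-1 had 3.51, 3.43 and 3.61 on skn-1 RNAi, against 2.94, 2.87 and 2.64 on vector. Its differences of 0.97 and 0.70 were smaller than those of most pals- members and varied less among the libraries, and its gene overlaps pph-4.1 on the opposite strand. F42C5.3 had 3.09, 2.38 and 2.73 log2 CPM in glp-1(ts) + skn-1 RNAi, against 0.10, −0.26 and −1.73 on vector, and 0.63, 1.03 and 2.97 in N2 + skn-1 RNAi, against −4.35, −0.66 and −2.89 on vector. F57G4.11 had 2.74, 3.63 and 3.21 log2 CPM in glp-1(ts) + skn-1 RNAi, against 1.40, 1.94 and −1.31 on vector, of which the value of −1.31 is the library with more germline RNA. Its N2 values were −0.33, 1.49 and −0.62 on skn-1 RNAi, against −2.89, −0.96 and −2.0 on vector.

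The neighbouring genes ddn-1, B0507.8 and B0507.7 of chromosome V were all members. ddn-1 (B0507.10) had 4.73, 4.24 and 4.92 log2 CPM in glp-1(ts) + skn-1 RNAi, against 0.96, 2.56 and 0.72 on vector. In N2 ddn-1 had 1.12, 1.92 and 3.16 on skn-1 RNAi, against −1.21, −0.66 and −1.46 on vector. The sizes were much the same in both strains, 3.22 ± 0.52 (SE) in glp-1(ts) and 3.18 ± 0.52 in N2. B0507.8 had 4.19, 3.43 and 4.38 log2 CPM in glp-1(ts) + skn-1 RNAi, against 1.61, 2.11 and −0.05 on vector, and 0.82, 2.17 and 3.15 in N2 + skn-1 RNAi, against −1.65, −2.05 and −2.89 on vector. B0507.7 had 0.24, 0.20 and 0.88 log2 CPM in glp-1(ts) + skn-1 RNAi, against −1.0, −0.26 and −0.96 on vector, and −2.86, −2.21 and −2.05 in N2 + skn-1 RNAi, where vector libraries were at the lowest value.

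Not every gene of the response met the rule. Of 13 response genes on a list written from general knowledge, 11 were measured and 3 were members, namely pals-5, pals-6 and pals-14. The ubiquitin ligase subunits on that list stayed nearer to 0: cul-6 differed by 0.49 in glp-1(ts) and 0.23 in N2, skr-3 by 0.0 and 0.24, skr-4 by 0.20 and 0.41, and skr-5 by 0.26 and 0.14. The viral RNA sensor drh-1 differed by 0.10 in glp-1(ts) and −0.01 in N2. limma with Benjamini-Hochberg adjustment called 1 of the 11 higher in N2 (pals-14) and 0 in glp-1(ts). At an unadjusted p below 0.05, 2 were higher in glp-1(ts) and 3 in N2. Over all 12595 genes, 519 were higher and 799 lower in glp-1(ts) at that level, and 259 and 491 in N2.

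Cathepsins were the most abundant group among the members. cpr-4, a cathepsin B-like protease, had 9.30, 9.23 and 9.40 log2 CPM in glp-1(ts) + skn-1 RNAi, against 7.30, 7.67 and 8.15 on vector. In N2 cpr-4 had 7.21, 6.77 and 8.15 on skn-1 RNAi, against 4.27, 5.63 and 6.21 on vector. With pals-14 it was the only member averaging at least 4 CPM whose difference exceeded 1 in every pair, with means of 1.60 ± 0.42 (SE) in glp-1(ts) and 2.01 ± 0.42 in N2. cpr-1, a gut cathepsin B-like protease, had 8.06, 8.82 and 8.63 log2 CPM in glp-1(ts) + skn-1 RNAi, against 7.39, 7.53 and 7.94 on vector. In N2 its libraries ranged widely, with 5.20, 6.87 and 8.13 on skn-1 RNAi, against 3.94, 5.41 and 5.53 on vector, and overlapped. cpr-5 had 7.04, 7.27 and 7.61 log2 CPM in glp-1(ts) + skn-1 RNAi, against 6.73, 6.75 and 7.19 on vector, and 5.92, 4.68 and 7.43 in N2 + skn-1 RNAi, against 4.72, 4.16 and 5.69 on vector. Both groups of libraries of cpr-5 overlapped in each strain, so that its membership rests on the pairing by replicate number. cpr-8, which lies next to cpr-5 on chromosome V, differed by 0.70 in glp-1(ts) and 0.57 in N2. cpz-1, the cathepsin Z-like protease with roles in moulting and embryos, differed by 0.47 in glp-1(ts) and 0.56 in N2. Of 7 cpr- genes measured, cpr-3, cpr-6 and cpr-9 were not members, with mean differences of −0.36, 0.26 and 0.11 in glp-1(ts) and −0.02, 0.17 and 0.13 in N2. No aspartyl protease was a member, and of 19 lysosomal and digestive proteases measured 1, the aspartyl protease asp-14, was called lower on skn-1 RNAi in each strain (differences of −2.61 in glp-1(ts) and −2.79 in N2; limma with Benjamini-Hochberg adjustment).

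Peroxisomal proteins were encoded by 5 members. acox-3, an acyl-CoA oxidase, had 6.70, 7.37 and 6.93 log2 CPM in glp-1(ts) + skn-1 RNAi, against 6.24, 6.73 and 6.08 on vector. Its N2 values were 4.23, 4.80 and 5.18 on skn-1 RNAi, against 3.55, 4.27 and 3.64 on vector. Acyl-CoA oxidases open the cycle, and maoc-1 is the enoyl-CoA hydratase that follows. maoc-1 had 6.74, 6.75 and 6.75 log2 CPM in glp-1(ts) + skn-1 RNAi, against 6.37, 6.33 and 6.25 on vector. In N2 maoc-1 had 4.96, 4.74 and 5.87 on skn-1 RNAi, against 4.47, 4.47 and 4.78 on vector. The third skn-1 RNAi library stood clear of the other two. daf-22, the thiolase that ends the cycle, had 7.37, 7.70 and 7.67 log2 CPM in glp-1(ts) + skn-1 RNAi, against 7.04, 7.13 and 6.92 on vector. In N2 daf-22 had 5.59, 5.65 and 6.82 on skn-1 RNAi, against 4.95, 5.19 and 5.25 on vector, with the same library highest. lonp-2, the peroxisomal Lon protease, differed by 0.64 ± 0.21 (SE) in glp-1(ts) and 0.68 ± 0.21 in N2, and the reductase gene dhrs-4 by 0.60 ± 0.24 and 0.75 ± 0.24. dhs-28, the dehydrogenase between maoc-1 and daf-22 in the cycle, was just short of the rule, with mean differences of 0.31 in glp-1(ts) and 0.63 in N2 and a smallest pair of 0.11. A list of 30 peroxisomal genes, drawn up after the members had been seen, had a median difference of 0.31 in glp-1(ts) and 0.27 in N2, with 24 and 23 genes above 0. limma with Benjamini-Hochberg adjustment called 0 of the 30 in either strain. At an unadjusted p below 0.05, 6 were higher and 1 lower in glp-1(ts), and 8 were higher in N2. Over all 12595 genes, 519 were higher and 799 lower in glp-1(ts) at that level, and 259 and 491 in N2. The 5 members on the list were chosen by these differences. The peroxins, which build the organelle, were not among the members.

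**Figure D4:**
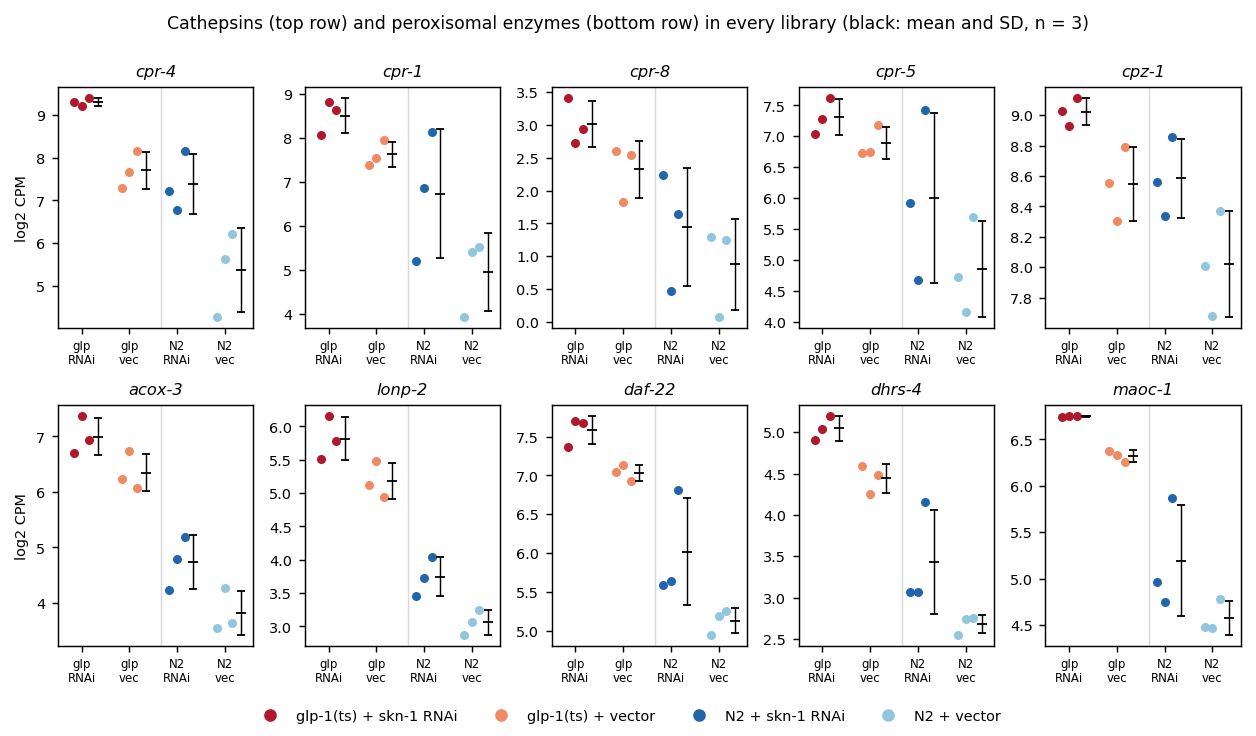
Log2 CPM of 5 cathepsin genes (upper row) and 5 peroxisomal enzyme genes (lower row) in the 12 libraries, in 4 groups as points (glp, glp-1(ts); RNAi, skn-1 RNAi; vec, vector), with the mean and SD of 3 libraries in black. cpr-4 has the widest gap between skn-1 RNAi and vector, and the third N2 skn-1 RNAi library is the highest N2 point for each peroxisomal gene.

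Among the remaining abundant members, adh-1, an alcohol dehydrogenase deposited under the name sodh-1, differed in N2 mainly in 1 pair. It had 6.68, 6.86 and 7.12 log2 CPM in glp-1(ts) + skn-1 RNAi, against 6.35, 6.16 and 6.70 on vector, and 4.42, 4.54 and 7.25 in N2 + skn-1 RNAi, against 4.03, 3.97 and 4.36 on vector. In N2 the third pair differed by 2.89, beside 0.39 and 0.57 in the others. The gene overlaps sodh-2 on the opposite strand, and since the strand setting of the counting is not given in the sources used here, reads of the overlap cannot be told apart. rrf-2, a putative RNA-dependent RNA polymerase, had 4.77, 5.01 and 5.14 log2 CPM in glp-1(ts) + skn-1 RNAi, against 3.90, 4.47 and 3.47 on vector. In N2 rrf-2 had 2.69, 3.06 and 2.61 on skn-1 RNAi, against 2.22, 2.44 and 2.0 on vector. The N2 libraries of rrf-2 were compact and the difference small, 0.57 ± 0.24 (SE). B0272.4 differed by 0.98 ± 0.24 (SE) in glp-1(ts) and 0.74 ± 0.24 in N2, F47H4.2 by 1.10 ± 0.33 and 1.81 ± 0.33, and Y69A2AR.12 by 1.15 ± 0.27 and 0.93 ± 0.27. Small differences with small errors were those of nas-11, an astacin metalloprotease, at 0.42 ± 0.13 and 0.43 ± 0.13, and of mrp-2, an ABC transporter, at 0.53 ± 0.16 and 0.35 ± 0.16.

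Antimicrobial genes among the members included the lysozyme gene lys-10, which had 2.84, 5.15 and 1.54 log2 CPM in glp-1(ts) + skn-1 RNAi, against −1.0, 3.61 and −0.19 on vector. In N2 lys-10 had −1.31, 2.90 and −1.21 on skn-1 RNAi, against −1.65, 1.98 and −4.35 on vector. Its second libraries were the highest in all 4 groups, so that the spread among replicates exceeded the difference between foods. fmo-2, a flavin-containing monooxygenase, had 1.46, 4.49 and 3.15 log2 CPM in glp-1(ts) + skn-1 RNAi, against −0.02, −0.26 and 0.35 on vector. In N2 fmo-2 had 1.40, 1.92 and 3.06 on skn-1 RNAi, against 0.89, 0.08 and −0.30 on vector. Within both strains the fmo-2 groups stood apart. abf-2, an antibacterial factor, differed by 1.41 in glp-1(ts) and 0.67 in N2, and spp-18, a saposin-like protein gene, by 0.95 and 0.88. Of 28 innate immunity genes measured, abf-2, fmo-2 and lys-10 were the members, a count that the rule itself lowers, since the 5 clec- genes (C-type lectins) that met the threshold were left out by name. dod-24 alone of the 28 was called, lower on skn-1 RNAi in both strains (differences of −4.27 in glp-1(ts) and −5.04 in N2; limma with Benjamini-Hochberg adjustment). At an unadjusted p below 0.05, 2 were higher and 2 lower in glp-1(ts), and 3 higher and 5 lower in N2. Over all 12595 genes, 519 were higher and 799 lower in glp-1(ts) at that level, and 259 and 491 in N2.

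Signalling genes were also present at low levels. cwn-1, a Wnt ligand, had 3.25, 2.75 and 3.18 log2 CPM in glp-1(ts) + skn-1 RNAi, against 2.80, 2.35 and 1.83 on vector. In N2 cwn-1 had 2.73, 2.48 and 2.76 on skn-1 RNAi, against 1.90, 1.73 and 2.14 on vector, with no overlap between foods. In glp-1(ts) the foods overlapped, as the skn-1 RNAi value of 2.75 lay below the vector value of 2.80. The forkhead factor unc-130 differed by 0.68 in glp-1(ts) and 0.56 in N2, the neuropeptide gene flp-27 by 0.54 and 0.74, and the ligand-gated ion channel lgc-50 by 0.53 and 0.59. No member was found on the lists of germline, eggshell, embryo, sperm, muscle, neuron, hypodermis or pharynx genes, and 1, cpr-1, stood on the list of 8 intestinal genes measured. Of 14 measured SKN-1 targets and regulators none was a member.

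The differences were not shown to vary in size between strains. The fitted difference was larger in N2 for 54 members and larger in glp-1(ts) for 45, with a median of −0.05 (glp-1(ts) minus N2). limma with Benjamini-Hochberg adjustment called 0% of the 12595 genes for this difference in either direction, and 363 higher and 382 lower had an unadjusted p below 0.05. Among the 99 members, math-34 (higher) and pals-6 and pals-39 (lower) were below that unadjusted level. The contrast shares its libraries with the rule. math-34 had 3.52, 2.96 and 3.06 log2 CPM in glp-1(ts) + skn-1 RNAi, against 1.21, 1.59 and 0.22 on vector, and 1.30, 1.25 and 1.20 in N2 + skn-1 RNAi, against 0.89, 0.35 and 0.53 on vector.

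The comparison of the strains averaged over both foods was not used to choose the genes, and it is tested here. Members were mostly more abundant in glp-1(ts) than in N2. limma, with p-values adjusted by Benjamini-Hochberg over all genes, called 85 of the 99 (85.9%) higher in glp-1(ts), against 46.5% of all genes, and 3 lower, against 40% of all genes. The 3 were dsl-6, fbxb-60 and unc-130. The median strain difference was 1.77 for members, with a range of −3.89 to 5.02, against 0.34 for all genes, and 93 members were above 0. On vector alone 69 members were called higher and 3 lower, against 39.4% and 38% of all genes. On skn-1 RNAi food 71 were called higher and 3 lower, against 41.7% and 38.1% of all genes. The average over both foods comes from the same libraries as the rule, but it does not use the food differences within a strain. A comparison on 1 food is not separate from those differences. The single-food counts are therefore a description and no further support. The deposited table kept genes at 1 CPM in any 2 samples, so a gene could enter through the strain where it was high. Of the 99 members 73 reached 1 CPM in at least 2 libraries of each strain, 23 did so in glp-1(ts) alone and 3 in N2 alone. Of the 73, 63 (86.3%) were called higher in glp-1(ts) and 1 lower, against 47.5% higher and 40% lower of all genes with that level in each strain, and their median strain difference was 1.77, against 0.29. This limit was chosen after the values were seen. Without the third glp-1(ts) vector library, 84 members were called higher over both foods, and 84 without the third N2 skn-1 RNAi library.

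Separation by library was also counted. The 6 glp-1(ts) libraries all lay above the 6 N2 libraries in 31 members (31.3%), against 33.7% of all genes. They all lay below in 2 members, against 35.7% of all genes. Each set of 6 libraries holds both foods, and the rule requires a food difference within each strain. This widens the range of the members and makes overlap more likely, so nothing is read from these shares. In whole animals that differ in germ cell number, fewer cells of a type and less RNA per cell cannot be told apart. In the same libraries, most but not all lists of somatic genes were higher in glp-1(ts). The median strain difference was 1.84 for 8 intestinal genes, 1.69 for 9 muscle genes and 1.82 for 9 neuronal genes. It was 2.05 for 6 pharyngeal genes, and every gene of these lists was called higher. For 11 hypodermis and cuticle genes the median was −0.48, with 5 called higher and 5 lower. For 15 germline genes it was −3.31, with none of them above 0. The member median of 1.77 lies among the medians of the intestinal, muscle, neuronal and pharyngeal lists, but not near that of the hypodermis and cuticle list. The part of RNA composition in the result was not tested.

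**Figure D5:**
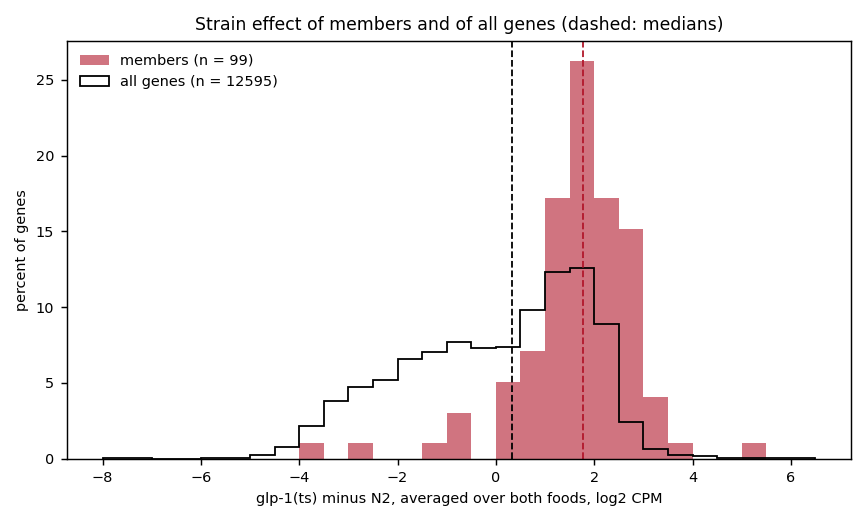
The horizontal axis gives the glp-1(ts) minus N2 difference averaged over both foods in log2 CPM, and the vertical axis the percent of genes in each bin, for the 99 members (filled) and all 12595 genes (outline); dashed lines are medians. The members centre at 1.77 and all genes at 0.34, and 93 of 99 members lie above 0.

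Among members called with no overlap between strains, the largest differences toward glp-1(ts) belonged mostly to genes that were low in N2. dlhd-1, arrd-11, cpg-7 and B0507.7 are among the 23 that reached 1 CPM in 2 libraries of glp-1(ts) but not of N2, so the filter favoured their direction and the p-values below are no independent support for it. dlhd-1, which encodes a dienelactone hydrolase domain protein, had 2.42, 4.24 and 3.88 log2 CPM in glp-1(ts) + skn-1 RNAi and 1.61, 2.06 and 1.79 in glp-1(ts) + vector. In N2 it had −1.31, −0.66 and −2.89 on skn-1 RNAi and −2.89, −2.05 and −4.35 on vector. The strain difference was 5.02 ± 0.48 (SE; adjusted p = 1.89e-07, limma with Benjamini-Hochberg adjustment), higher in all 6 glp-1(ts) libraries. The arrestin domain gene arrd-11, the chondroitin proteoglycan gene cpg-7, B0507.7 and T12B5.14 followed among the genes without overlap, with strain differences of 3.76 ± 0.58, 3.48 ± 0.32, 3.21 ± 0.42 and 3.12 ± 0.38 (SE) and adjusted p from 1.30e-07 to 3.21e-05 (limma with Benjamini-Hochberg adjustment). math-38, at 3.40, lay within this range, but its libraries overlapped. The size for B0507.7 depends on the lowest value of the table.

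The exceptions ran the other way. dsl-6 and fbxb-60 reached 1 CPM in 2 libraries of N2 but not of glp-1(ts), so that the filter likewise favoured their direction. dsl-6, of the family of DSL ligands that act on Notch receptors such as glp-1, had −0.96, −1.37 and −2.65 log2 CPM in glp-1(ts) + skn-1 RNAi and −4.35, −1.96 and −3.29 in glp-1(ts) + vector. In N2 it had 1.73, 1.45 and 2.62 on skn-1 RNAi and 0.70, 0.55 and 1.73 on vector. Its strain difference was −3.89 ± 0.46 (SE; adjusted p = 2.13e-06, limma with Benjamini-Hochberg adjustment), lower in all 6 glp-1(ts) libraries, although its skn-1 RNAi value was above the vector value in all 6 matched pairs. fbxb-60, an F-box gene, was the second such gene, with −2.63 ± 0.50 (adjusted p = 0.000223, limma with Benjamini-Hochberg adjustment), and unc-130 fell by 1.30 with overlapping libraries.

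Within the groups described above, the strain difference was higher in glp-1(ts) for most. Of the 10 pals- members 9 were called higher, with pals-31 at 0.60 ± 0.39 (SE; adjusted p = 0.166, limma with Benjamini-Hochberg adjustment) the exception; pals-4, pals-5, pals-30 and pals-38 are among those that passed the filter through glp-1(ts) alone. Over all 23 pals- genes 18 were called higher and 0 lower, with a median of 1.92 and 22 above 0, and pals-25, at −0.72, was the exception. All 7 cpr- genes were called higher, with a median of 1.67. Of the 30 peroxisomal genes 25 were called higher and 2 lower, with a median of 1.69. Of the 20 math- genes 18 were called higher and 2 lower. These shares are to be read beside the 46.5% of all genes that were called higher. Well measured members with small errors included nas-11 at 1.99 ± 0.09, mrp-2 at 2.07 ± 0.12, lonp-2 at 2.09 ± 0.15, swm-1, which encodes a trypsin inhibitor-like secreted protein, at 2.36 ± 0.14 and acox-3 at 2.40 ± 0.19 (SE). In contrast, fmo-2 had 0.35 ± 0.44 (SE; adjusted p = 0.457, limma with Benjamini-Hochberg adjustment), and the sign of that value was not stable when a library was left out.

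The members were not spread evenly over the genome. By the Ensembl release 115 annotation of WBcel235, the build of the deposited data, 39 of the 99 (39.4%) lie on chromosome V, which holds 19.3% of the measured genes. Chromosome II holds 17 members (17.2%, against 17.2% of measured genes), chromosome IV 16 (16.2% against 16.3%), chromosome I 14 (14.1% against 16.4%), chromosome X 7 (7.07% against 14.5%) and chromosome III 6 (6.06% against 16.3%). Neighbours were often members together: 24 of the 99 (24.2%) lay within 20 kb of another member, against 3.60% of all measured genes that lay as near to one. The largest run was ZC196.4, ZC196.1, B0507.7, ddn-1 and B0507.8 at chrV:8733106-8762961. The next was pals-4, pals-5, pals-6 and pals-14 on chromosome I, and then dhrs-4, T16G1.7 and T16G1.6 at chrV:12922608-12937174. Pairs were pals-39 with pals-38 at chrV:12441663-12446995, Y2H9A.6 with Y2H9A.4 at chrV:13443835-13448815, cpr-5 with cpr-8 at chrV:1132598-1139182, swm-1 with C25E10.8 at chrV:9053262-9054871, K10G4.13 with sri-70 at chrV:17294413-17304438 and pals-30 with T27E7.9 at chrIV:14546867-14551970. Related genes that sit side by side can share reads, which was not tested.

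By gene model, 93 members are protein-coding, 5 are pseudogenes (K10G4.13, B0462.1, C18D4.8, ZC196.1 and fbxa-149; 5.05% of members, against 2.15% of measured genes) and 1, T25C12.12, is a snoRNA gene that lies within lin-14 on the same strand. The median exonic length was 1206 bases for members and 1434 bases for measured genes. The gene bodies of 20 members overlap a protein-coding gene, most often on the opposite strand, among them maoc-1, nas-11, abf-2, pals-4 and pals-32. For 47 members (47.5%, against 39.5% of all genes) the annotation gives only a sequence name.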

How the data were processed

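RNA from whole animals of 12 samples was sequenced as single reads with poly(A) enrichment. The authors used STAR for alignment (WBcel235) and featureCounts (Subread) for counting per gene, kept genes with 1 CPM in 2 or more samples, and normalized by quantiles within voom. What they deposited is a table of log2 CPM covering 12595 genes, from which all values here were computed. Read depth cannot be recovered from it. Tool versions are not given in the sources used here, nor is the strand setting. The authors' deposited columns of fold changes and p-values were not used.

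Groups and replicate numbers came from the sample labels. Group means were fitted with limma 3.58.1 (R 4.3.3) with empirical Bayes and a trend over all 12 libraries, and p-values were adjusted by Benjamini-Hochberg over all genes, called under 0.05. Same-numbered libraries of a strain deviated together (residual correlations across genes of 0.106, 0.314 and 0.247 in N2 and 0.149, 0.337 and 0.233 in glp-1(ts)), so the numbers were taken to pair the foods. The paper states only that samples were matched, and p-values measure the spread between these samples.

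The members and lists were chosen with earlier results of these data known. Genes were named by rule: the 15 with the largest smallest pair difference, the 10 such with a mean of at least 4 CPM, those with the largest strain difference called without overlap (5 higher, 2 lower), 3 on each side of the threshold and members on a list. Others were chosen after their values were seen. Scripts were tested on simulated data. Alternatives were thresholds, pairings, filters at 1 and 4 CPM, log2(CPM + 1), scaling, trend, weights, replicate block and leaving out each library. Promoter motifs were planned and not analysed here. Positions are from Ensembl release 115, read with Python 3.11.15.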

Additional observations from a re-analysis of the deposited data

How the results depend on the processing

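The number of genes that met the rule depended on its settings. It was 99 as reported, 438 with a threshold of 0, 41 with a threshold of 0.5, 27 when all 9 differences of each strain had to pass and 65 and 79 (37 and 36 of them among the 99) when replicate numbers were shifted by 1 and by 2. It was 28 with a mean of at least 4 CPM, 52 on log2(CPM + 1), and 188 to 284 when 1 replicate number was left out, where fewer pairs had to pass. With libraries centred on the reference genes it was 86, of which 79 were among the 99. With libraries centred on the median it was 94, of which 93 were among the 99. With a mean of at least 4 CPM, 27 members were called higher in glp-1(ts) over both foods and 24 on vector, and 0 lower in both. With a mean of at least 1 CPM, 1 was called lower in both. Among members with at least 1 CPM in 2 libraries of each strain, an alternative chosen after seeing the data, 1 was called lower over both foods and on vector. These filters leave fewer members, 28, 76 and 73. The median food difference was 0.69 in glp-1(ts) and 0.75 in N2 with at least 4 CPM, and 0.69 and 0.55 on log2(CPM + 1).

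The replicate block, which pairs libraries by number, gave 87 members called higher and 3 lower over both foods, 73 and 3 on vector, and left the medians at 0.98 and 1.10. It moved no count by over 1.5 times. Leaving out 1 library gave 78 to 86 called higher over both foods and 64 to 74 on vector. Of 955 strain values of 43 named genes under alternatives, 925 kept direction and side of the threshold and 28 lost the call. The strain difference of fmo-2 turned from 0.35 to −0.012 without glp-1(ts) + skn-1 RNAi replicate 2 and to −0.20 on vector only, and the cause was not tested. Depth is unknown, and levels near −4.35 log2 CPM, the lowest of the table, limit what can be said of rare transcripts.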
